A study of Homo sapiens with 12 samples.

Results

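The mitochondrial protein import, chaperone and protease genes are a list of 46 nuclear genes whose products bring proteins into mitochondria, fold them there or degrade them. Members were found by their GENCODE 29 symbols and Ensembl identifiers among the 58735 genes of the deposited tables, and no measured value entered that step. The list itself was chosen with earlier results of these data known. All 46 were listed, and 45 of them passed the filter on low reads in both tables. RNA-seq was performed on SK-BR-3, an established HER2-amplified breast cancer cell line, on SK/EPI, its epirubicin-resistant derivative made by long stepwise exposure to the drug, and on SK/EPI cells 48 h after transfection, either with siRNA to silence BCRP (named SK/EPI-siBCRP) or with the negative control (named SK/EPI-siNC). Each of the 4 groups held 3 libraries. BCRP, encoded by ABCG2, is an ATP-binding cassette transporter, and both siRNA groups carry the resistance background and the transfection. The question asked of these cells is how resistance and BCRP relate to mitochondrial metabolism. Whether SK/EPI is a clone, and whether the libraries of a group came from separate cultures, is not given in the sources used here, so the p-values measure the spread between these libraries.

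Nearly all mitochondrial proteins are encoded in the nucleus, made in the cytosol and imported. The TOM complex of the outer membrane takes up precursors and passes them on to the TIM23 channel, whose ATP-driven motor pulls them into the matrix, to the TIM22 translocase for carrier proteins, to the CHCHD4 (MIA) pathway of the intermembrane space or to the SAM complex, which inserts barrel-shaped proteins of the outer membrane. Matrix peptidases then remove the targeting sequence, chaperones fold the protein, and proteases remove what is damaged or in surplus. The subunits of oxidative phosphorylation (OXPHOS) that the nucleus encodes are among the largest client groups of this machinery, and their direction is given beside that of the members throughout.

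Depth was 15830381 to 20545811 reads on genes per library. ABCG2, the check of the labels, was at 0.0750, 0.0220 and 0.0520 FPKM in SK-BR-3 libraries (2 to 6 reads each) against 33.9, 35.9 and 32.7 in SK/EPI libraries, and fell from 32.5, 32.7 and 33.7 in SK/EPI-siNC to 2.84, 3.47 and 2.91 in SK/EPI-siBCRP libraries (log2 fold change -3.06, SE 0.059, adjusted p = 5.93e-07). Of 7 markers of the line, 6 were above 10 FPKM on average in each group and CDH1 was at or near 0 in each, while ERBB2 was at 659 FPKM in SK-BR-3 and 133 in SK/EPI cells. The summed FPKM of 11 markers of other cell types was 1.99 to 2.17 in SK-BR-3, 8.83 to 10.2 in SK/EPI, 23.5 to 24.3 in SK/EPI-siNC and 28.5 to 29.2 in SK/EPI-siBCRP libraries. KRT5, a basal keratin, made up most of this rise, and VIM did not exceed 0.02005 FPKM in any library. The part of these marker shifts in the results was not tested. A library averages over all its cells, so fewer cells with a transcript and less of it per cell cannot be told apart.

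Levels of the members spanned a wide range. FPKM divides fragments by exon length and by the total of the library. The length is that of all annotated exons merged, so levels of different genes compare only roughly. SPG7, at 36008 bases, had 1458 to 1650 reads but 2.49 FPKM in SK-BR-3 cells, where TIMM44 had 759 to 957 reads and 10.2 FPKM. Between 31 and 33 of the 46 members averaged above 10 FPKM in each group, and 2 (TOMM5 and TOMM6) were under 1 FPKM. HSPD1, the mitochondrial HSP60 that folds matrix proteins, and PHB2, a subunit of the prohibitin ring of the inner membrane, were the highest in SK-BR-3 cells, at 125 ± 4.49 and 129 ± 2.90 FPKM (mean ± SD, n = 3), followed by HSPA9, the HSP70 of the import motor, at 99.8 ± 1.92 FPKM. The spread of HSPD1 and PHB2 overlapped between libraries, whereas HSPA9 was lower in each library. At the low end, TOMM5, a small TOM subunit, was at 0.532 ± 0.0663 FPKM, and 18.7% of its exon sequence is shared with other annotated genes on the same strand. TOMM6 was listed at 0 in all 12 libraries. Its exon lies entirely within that of a second annotated gene on the same strand, AL365205.1, which had 68 to 170 reads per library, so TOMM6 gives no level here. The summed FPKM of the members was 1342 ± 25.3 in SK-BR-3, 1248 ± 18.9 in SK/EPI, 1193 ± 10.6 in SK/EPI-siNC and 1457 ± 22.1 in SK/EPI-siBCRP cells. The corresponding sums of the nuclear OXPHOS genes were 4981 ± 171, 3542 ± 102, 3368 ± 55.1 and 4570 ± 112. Tests were made within each table only, since the tables may have been scaled separately.

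In SK/EPI cells compared with SK-BR-3 cells, the members split. Of 45 tested, 23 were lower and 14 higher at an adjusted p under 0.05 (limma on log2(FPKM + 1), Benjamini-Hochberg over all 15823 genes tested), and 8 were not called. The background was high, with 74.9% of all tested genes called, 37.0% lower and 37.9% higher, so the 82.2% of members called stood near it, and the lower share of 51.1% stood above. The groups did not overlap for 84.4% of members and 77.7% of all genes. Those lower included the channels TOMM40 and TIMM23, but not the carrier channel TIMM22, the receptors TOMM20, TOMM22 and TIMM50, every processing peptidase and the whole SAM complex, whereas the higher ones included HSPD1, HSPE1, LONP1, CLPP, PHB and TIMM44. With the additional requirement of a 1.5-fold difference on the log2(FPKM + 1) scale, 8 members were lower and 2 higher, where 15.0% and 15.5% of all genes were. The median log2 fold change was -0.09 for the members and 0.0084 for all genes.

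The split depended on which scaling was used. Reads on genes were 99.8 to 101% of the total that the deposited values imply in SK-BR-3 and 92.8 to 95.4% in SK/EPI libraries, and the mitochondrial chromosome took 4.18 to 4.23% and 5.10 to 5.38% of the reads. Scaling to reads on genes gave 21 members lower and 18 higher, leaving out the mitochondrial chromosome gave 21 and 21, and voom on the recovered reads 21 and 19, each moving the median of all genes up by 0.07 to 0.09. PHB2, OMA1, TRAP1 and GRPEL2 were called higher under each of these, TIMM13 under the last 2, and GFER and HTRA2 without the mitochondrial chromosome. The nuclear OXPHOS genes stayed mainly lower, with 54 of 79 lower and 6 higher in the reported fit and 47 or 48 lower and 9 higher under these scalings. Median-of-ratios scaling, a further alternative, left the members at 23 lower and 14 higher, with a median shift of -0.0006 over all genes. Across all 14 alternatives, 21 of the 23 lower and 13 of the 14 higher members kept their call, the exceptions being HSPA9, MTX2 and TOMM5.

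After BCRP silencing the direction was nearly uniform. In SK/EPI-siBCRP cells compared with SK/EPI-siNC cells, 32 of the 45 members were higher, 2 were lower and 11 were not called, where 38.1% of 16298 genes tested were called, 19.4% higher and 18.7% lower. The groups did not overlap for 84.4% of members, as against 50.9% of all genes. The differences were small. The median log2 fold change was 0.23 for the members and -0.0036 for all genes, the members called higher rose by a median of 21.9%, and CHCHD4 alone passed 1.5-fold on the log2(FPKM + 1) scale, upwards, where 1.14% of all genes did so upwards and 1.91% downwards (3.05% together). The number of members higher was 28 to 34 and the number lower 0 to 3 over the alternatives, and 28 of the 32 kept their call in each of them. No lower call did: TOMM34 was lost without SK/EPI-siNC library 2 (adjusted p = 0.0540) or 3 (0.0530), and GRPEL2 without the filter or without SK/EPI-siBCRP library 1 or 2 or SK/EPI-siNC library 2 or 3 (0.0863 to 0.0984).

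**Figure D1:**
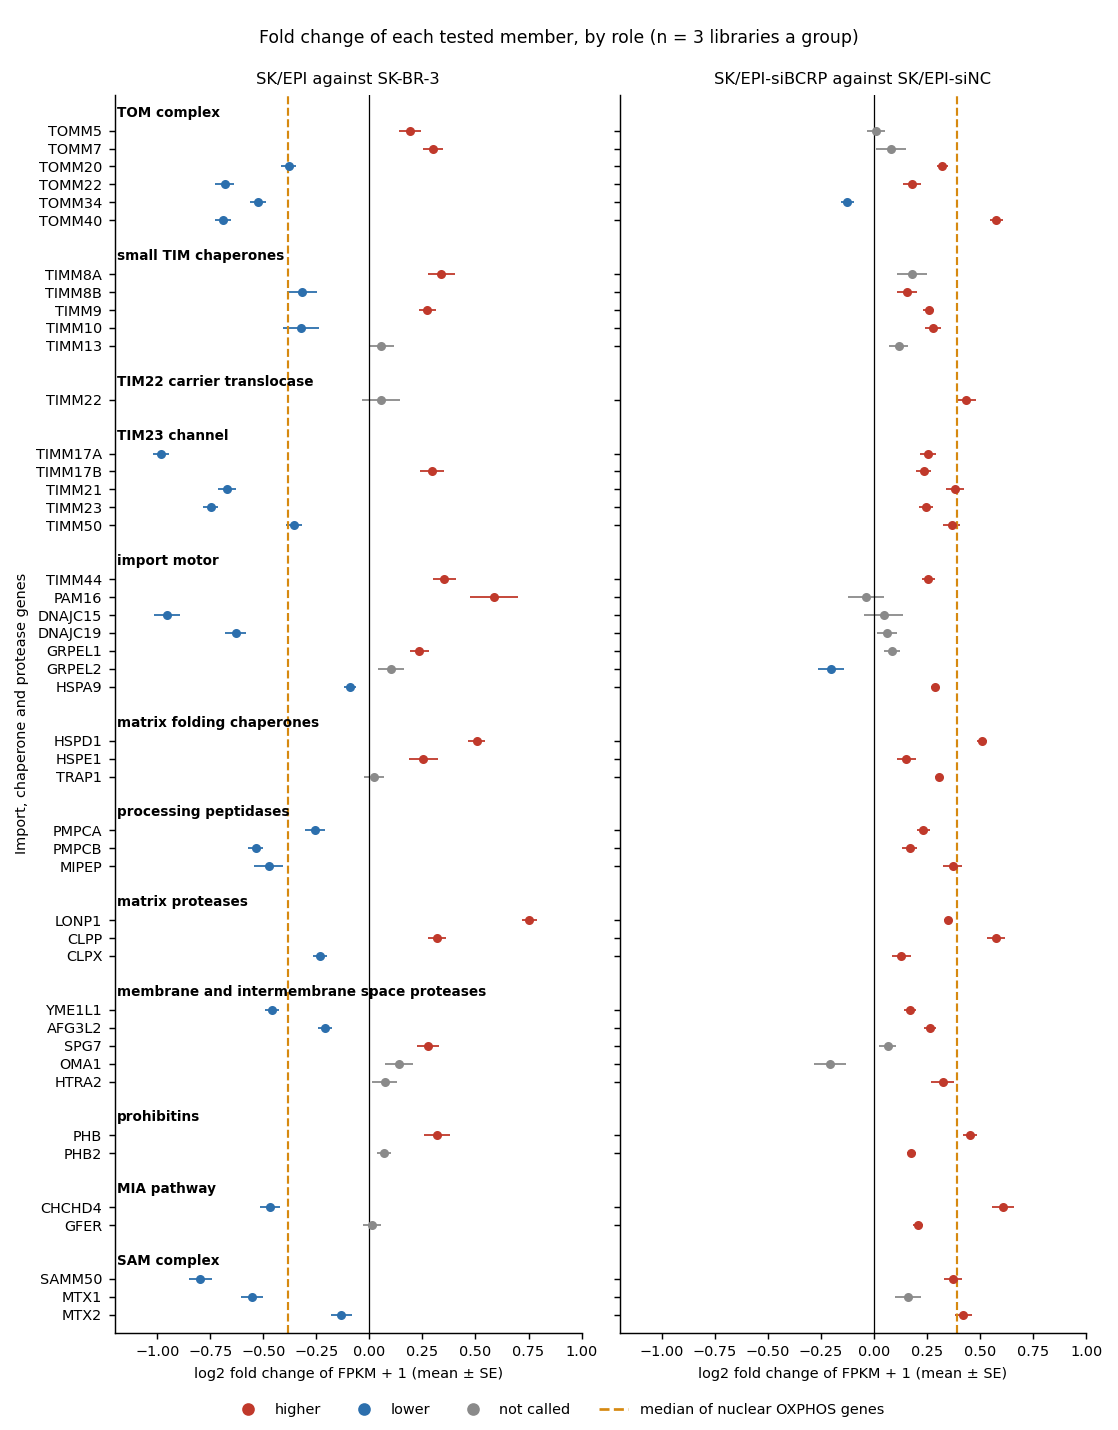
Log2 fold change of FPKM + 1 (x axis, mean ± SE, 3 libraries a group) of the 45 tested members, arranged by role, for SK/EPI against SK-BR-3 (left) and SK/EPI-siBCRP against SK/EPI-siNC (right). Red, blue and grey points are members called higher, called lower and not called, and the dashed line is the median of the nuclear OXPHOS genes (-0.38 left, 0.39 right). The left panel holds 23 blue and 14 red points, the right panel 32 red and 2 blue.

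Set against each other, 19 of the 45 members were lower in SK/EPI cells and higher after BCRP silencing (42.2%, where 8.51% of the 15152 genes tested in both were). A further 8 members were higher in both comparisons (8.07% of all genes), TOMM34 was lower in both (7.19%), and no member was higher in SK/EPI cells and lower after silencing by limma (8.51%), nor at an unadjusted p under 0.05, while voom placed GRPEL2 and OMA1 there. Over the 14 alternatives, 14 of the 19 members lower and then higher kept both calls in each of them, as did 7 of the 8 higher in both. Across the 45 members the 2 log2 fold changes were hardly related (Pearson r -0.072, Spearman rho -0.068). Of the 23 members lower in SK/EPI cells, 19 were higher after silencing (82.6%, where 23.9% of all genes lower there were). Of the 14 higher in SK/EPI cells, 8 were higher after silencing too (57.1%, where 20.7% of all genes higher there were). The other 6 (GRPEL1, PAM16, SPG7, TIMM8A, TOMM5 and TOMM7) were not called. The nuclear OXPHOS genes followed the first of these patterns, with 45 of 79 lower and then higher (57.0%), and 1 (COX7C, a subunit of complex IV, named after its values were seen) higher in both (1.27%). Of the 54 OXPHOS genes lower in SK/EPI cells, 45 were higher after silencing, and 2 were lower again. Called higher in SK/EPI cells were 14 of 45 members (31.1%) and 6 of 79 OXPHOS genes (7.6%), where 37.9% of all genes were. The share of the members thus lay near that of all genes, and the share of the OXPHOS genes below it. The difference between the lists was not tested. The SK/EPI line stands on both sides, as the resistant line in the first comparison and as the transfected line in the second, but no library is shared.

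**Figure D2:**
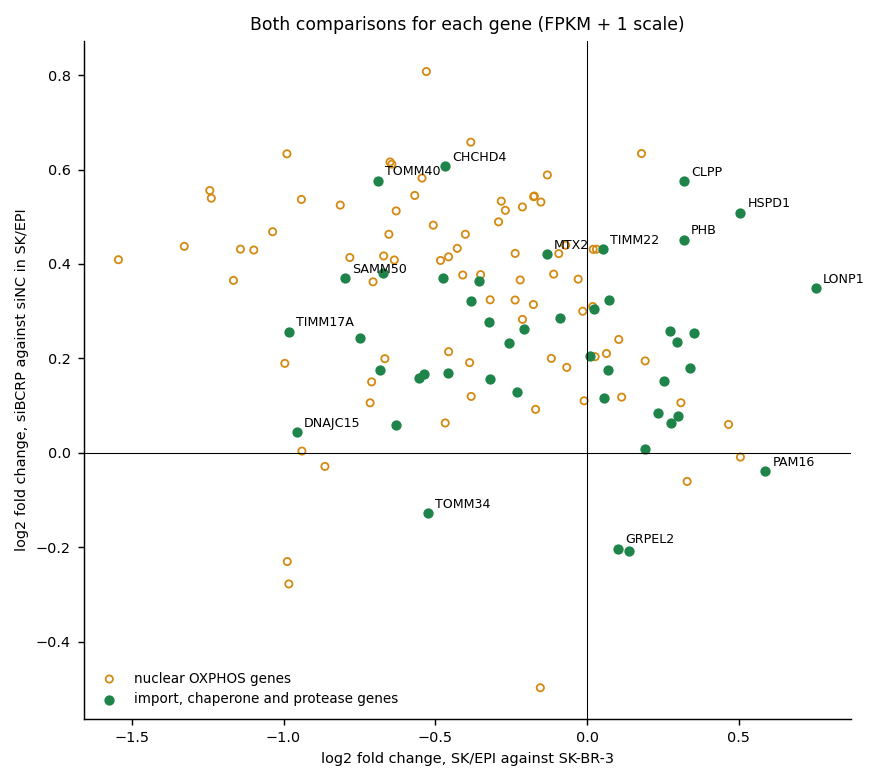
Log2 fold change of FPKM + 1 in SK/EPI against SK-BR-3 (x axis) and in SK/EPI-siBCRP against SK/EPI-siNC (y axis) for the 45 members (filled) and 79 nuclear OXPHOS genes (open). The upper left part holds most open circles, and the upper right part holds LONP1, HSPD1, CLPP and PHB among the members.

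The start regions of the members were read from RefSeq (GRCh38.p14), as 250 bases before and 50 after each start, and 41 of the 46 matched. Matches to the binding letters of NRF1, an activator of nuclear genes for mitochondria, were present in 12 of these 41 (29.3%) and in 6.28% of all 27305 start regions. They were in 4 of the 17 members lower in SK/EPI and higher in SK/EPI-siBCRP cells (23.5%), and in 2 of the 7 higher in both (28.6%). The latter 2 are HSPD1 and HSPE1, whose start regions overlap. Each held 1 match, and it is the same site, counted for both genes here and among the 12 of 41. CHCHD4 and SPG7 held 2 matches each, and SPG7 was higher in SK/EPI cells and not called after silencing. Members had a median GC content of 65.3%, against 58.3% for all, and the part of GC content in this share was not tested. The heat shock element was in 0 of 41 and in 0.487% of all, TGATGNAA, letters bound by ATF and C/EBP factors, in 2 of 41 (3.67% of all), ACCGGAAG, bound by ETS factors, in 5 (2.32% of all), and the CCAAT box in 13 (35.7% of all). Each motif was searched on both strands, and a match at the same place on both was counted once. TOMM40 and TIMM17A, both lower in SK/EPI and higher in SK/EPI-siBCRP cells, each held 5 CCAAT boxes, a number reached by 0.403% of all start regions. That cut is the count of these 2 members themselves, and TIMM17B, higher in both comparisons, held 3. At least 1 CCAAT box was in 31.7% of the 41 members, below the share of all start regions. Of the 5 of TIMM17A, 4 lie in the stretch shown, and of the 2 NRF1 matches of CHCHD4, 1 does. The following stretches are shown for the members with 5 CCAAT boxes, for CHCHD4, which held 2 matches to the NRF1 letters and had the largest log2 rise after silencing, and for HSPD1, which shares its start region with HSPE1 on the opposite strand. Each is written 5′ to 3′ on the strand of the gene with the matches in capitals, CCAAT or its reverse complement in the first pair and the NRF1 letters in the second.
TOMM40 (chr19:44891004-44891219, plus strand, 250 to 35 bases before the start): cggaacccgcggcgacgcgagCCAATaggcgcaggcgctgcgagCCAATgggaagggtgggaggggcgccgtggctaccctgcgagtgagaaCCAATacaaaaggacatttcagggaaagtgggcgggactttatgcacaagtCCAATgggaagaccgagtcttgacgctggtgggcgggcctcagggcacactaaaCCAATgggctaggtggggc
TIMM17A (chr1:201955253-201955490, plus strand, 250 to 13 bases before the start): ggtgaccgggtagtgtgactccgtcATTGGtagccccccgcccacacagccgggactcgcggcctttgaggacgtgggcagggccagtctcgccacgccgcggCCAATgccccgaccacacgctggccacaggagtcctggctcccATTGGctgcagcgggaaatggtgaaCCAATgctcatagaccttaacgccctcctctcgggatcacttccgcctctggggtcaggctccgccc
CHCHD4 (chr3:14125003-14125032, minus strand): cagtgtttctGCGCATGCGCgcggcgagac
HSPD1 (chr2:197500322-197500351, minus strand): atcacccagcGCGCAGGCGCgctcgcccca
A match is a run of letters in this window and not a measured binding site.

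Of the TOM complex, 4 of 6 tested members were lower in SK/EPI than in SK-BR-3 cells and 2 were higher. TOMM40, the channel, was at 83.6, 78.4 and 80.8 FPKM in SK-BR-3 and 47.8, 49.99 and 51.6 in SK/EPI libraries, 1.63-fold lower (log2 fold change -0.69, SE 0.04, adjusted p = 1.43e-06). After BCRP silencing it rose from 37.1, 36.5 and 34.8 in SK/EPI-siNC to 55.8, 53.2 and 54.0 FPKM in SK/EPI-siBCRP libraries (log2 fold change 0.58, SE 0.031, adjusted p = 1.69e-05). The groups did not overlap in either comparison. The SK/EPI-siNC values of TOMM40 lay below its SK/EPI ones, in a table that may have been scaled separately. The receptors TOMM20 and TOMM22, which recognise targeting sequences, went the same way. TOMM22 read 38.8, 36.4 and 37.5 FPKM in SK-BR-3 and 21.8, 23.3 and 24.0 in SK/EPI libraries (log2 fold change -0.68, SE 0.044, adjusted p = 2.82e-06). In TOMM20 the values were 43.6, 46.8 and 47.0 against 35.2, 35.0 and 34.5 FPKM (log2 fold change -0.38, SE 0.036, adjusted p = 2.98e-05). Silencing raised TOMM20 from 40.0, 38.6 and 38.5 to 48.0, 49.5 and 49.6 FPKM (log2 fold change 0.32, SE 0.025, adjusted p = 8.71e-05), a difference much larger than the spread within groups. TOMM22 rose by less (log2 fold change 0.18, SE 0.042, adjusted p = 0.0146), and without the filter on low reads its adjusted p was 0.0517. TOMM34, a cytosolic partner of chaperones named with the complex, was the member lower in both comparisons, from 39.6 ± 0.542 to 27.2 ± 1.17 FPKM and from 32.2 ± 0.582 to 29.4 ± 1.10 FPKM. The small subunits TOMM5 and TOMM7, which steady the complex, were higher in SK/EPI cells (log2 fold changes 0.19 and 0.30) and were not called after silencing (0.0092 and 0.079). TOMM5 rested on 33 to 55 reads per library and was not called without the filter (adjusted p = 0.0952).

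In the TIM23 channel, TIMM17A, TIMM21, TIMM23 and TIMM50 were lower in SK/EPI cells, TIMM17B was higher, and all 5 were higher after BCRP silencing. TIMM17A and TIMM17B are alternative subunits of the channel. TIMM17A was at 46.6, 48.3 and 45.2 FPKM in SK-BR-3 and at 22.5, 24.1 and 22.8 in SK/EPI libraries, the largest difference among the members on the log2(FPKM + 1) scale, though not as a ratio of FPKM (log2 fold change -0.98, SE 0.039, adjusted p = 1.73e-07). TIMM17B stood at 18.2, 16.7 and 15.4 against 20.8, 20.8 and 20.7 FPKM (log2 fold change 0.30, SE 0.056, adjusted p = 0.00171). The 2 paralogues thus lay at 46.7 ± 1.56 and 16.8 ± 1.43 FPKM in SK-BR-3 cells but at 23.2 ± 0.874 and 20.8 ± 0.0644 in SK/EPI cells. With silencing TIMM17A went from 28.7, 26.1 and 27.8 to 32.1, 33.5 and 33.6 FPKM (log2 fold change 0.26, SE 0.038, adjusted p = 0.00174) and TIMM17B from 17.8, 16.3 and 17.3 to 20.4, 19.8 and 20.6 (log2 fold change 0.23, SE 0.036, adjusted p = 0.00220), so both rose by a similar factor. TIMM23, the pore subunit, fell from 81.4, 86.0 and 80.8 FPKM in SK-BR-3 to 48.6, 49.9 and 47.9 in SK/EPI libraries (log2 fold change -0.75, SE 0.035, adjusted p = 4.38e-07) and was 1.19-fold higher after silencing (log2 fold change 0.24, SE 0.033, adjusted p = 0.00118). Reads on its near-identical copy TIMM23B were 14.8 to 15.8% of those on TIMM23 in SK-BR-3 and 21.3 to 25.1% in SK/EPI libraries, and the division of reads between the copies is uncertain. TIMM21, which links the channel to the TOM complex, was at 9.41, 9.07 and 8.82 against 5.42, 5.28 and 5.33 FPKM (log2 fold change -0.67, SE 0.042, adjusted p = 2.36e-06). With silencing TIMM21 was at 11.2, 12.2 and 11.6 FPKM, against 9.02, 8.72 and 8.32 in SK/EPI-siNC libraries (log2 fold change 0.38, SE 0.043, adjusted p = 0.000455). The SK/EPI-siNC values thus lay above the SK/EPI ones, in a table that may have been scaled separately. TIMM50, the receptor of the channel, fell in SK/EPI cells (log2 fold change -0.36, SE 0.039, adjusted p = 6.53e-05, 15.6, 15.2 and 14.6 to 11.3, 11.5 and 11.9 FPKM) and rose by a log2 value of similar size with silencing (log2 fold change 0.36, SE 0.042, adjusted p = 0.000503, 11.5, 11.3 and 10.5 to 14.3, 14.3 and 15.1 FPKM).

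**Figure D3:**
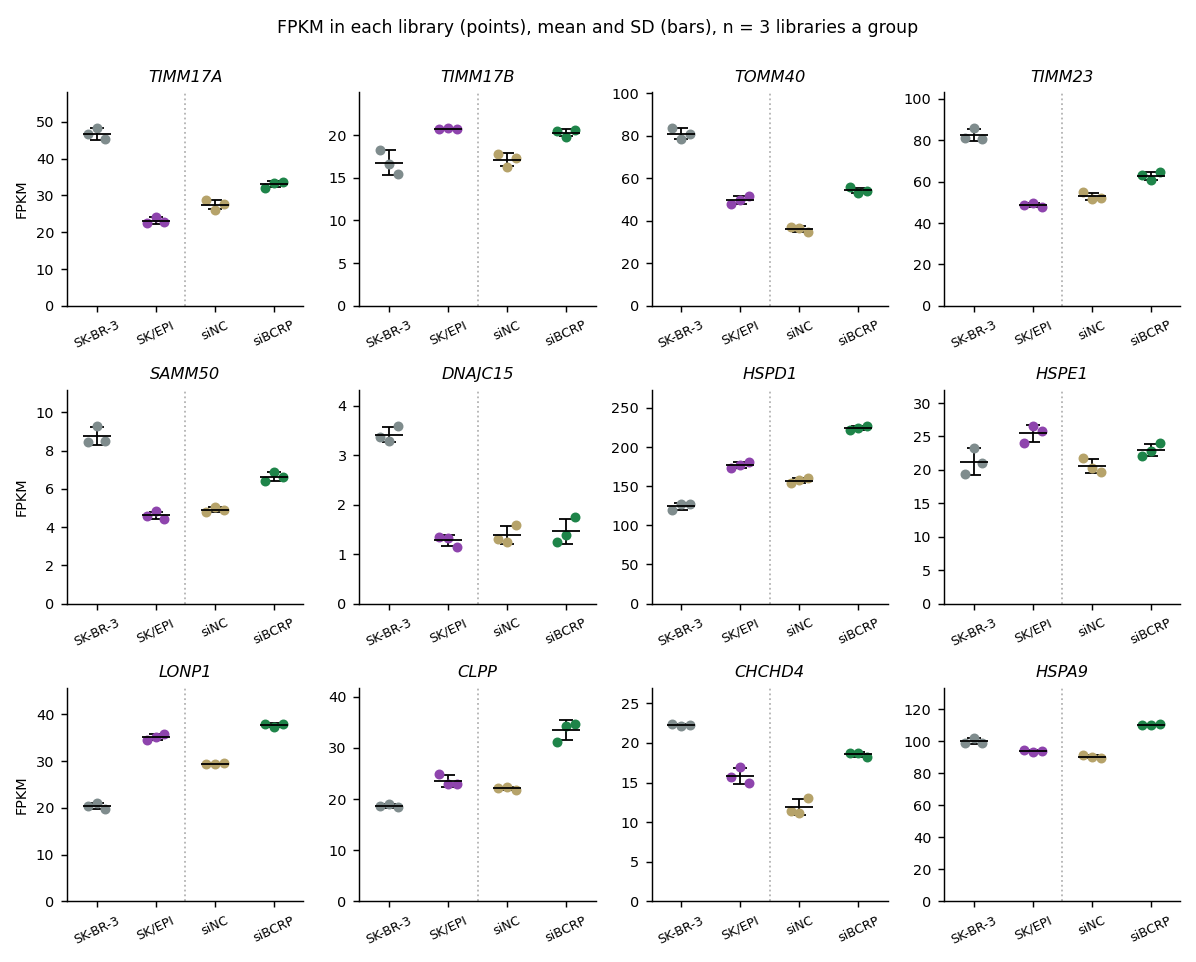
FPKM (y axis, from 0) in each of the 12 libraries for 12 members, with the mean and SD of each group. The dotted line separates the tables, which may have been scaled separately. TIMM17A, TOMM40, TIMM23, SAMM50 and CHCHD4 were lower in SK/EPI than in SK-BR-3 libraries and higher with siBCRP than with siNC, HSPD1, LONP1 and CLPP were higher in both comparisons, and DNAJC15 overlapped between siNC and siBCRP libraries.

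In the import motor the members moved apart. In SK/EPI cells TIMM44, PAM16 and GRPEL1 were higher, and DNAJC15, DNAJC19 and HSPA9 lower. DNAJC15 and DNAJC19 are J proteins that stimulate the ATPase of HSPA9. DNAJC15, also known as MCJ, was at 3.38, 3.29 and 3.60 FPKM in SK-BR-3 and 1.35, 1.33 and 1.155 in SK/EPI libraries, 2.67-fold lower (log2 fold change -0.96, SE 0.062, adjusted p = 2.94e-06). DNAJC19 was at 15.8, 15.1 and 15.3 against 9.22, 9.27 and 10.3 FPKM, 1.60-fold lower (log2 fold change -0.63, SE 0.049, adjusted p = 8.29e-06). Neither was called after BCRP silencing. DNAJC15 read 1.31, 1.247 and 1.59 in SK/EPI-siNC and 1.252, 1.38 and 1.75 FPKM in SK/EPI-siBCRP libraries (log2 fold change 0.044, SE 0.092, adjusted p = 0.741), and DNAJC19 12.3, 11.3 and 11.7 and 12.9, 11.6 and 12.4 FPKM (log2 fold change 0.059, SE 0.048, adjusted p = 0.368), with overlapping groups in both. These and MTX1 were the 3 members lower in SK/EPI cells for which no difference was called after silencing. PAM16, which holds the J protein at the channel, had 1.67, 1.46 and 1.01 against 2.70, 2.23 and 2.76 FPKM (log2 fold change 0.59, SE 0.11, adjusted p = 0.00177) from 46 to 126 reads per library, and 21.9% of its exons are shared with other annotated genes. Its values after silencing overlapped (log2 fold change -0.038, SE 0.084, adjusted p = 0.754). TIMM44, which ties HSPA9 to the channel, was higher in SK/EPI cells (log2 fold change 0.35, SE 0.053, adjusted p = 0.000442) and after silencing (log2 fold change 0.25, SE 0.031, adjusted p = 0.000713). HSPA9 itself was nearly level in the first comparison, at 98.7, 102 and 98.8 against 94.2, 93.1 and 93.8 FPKM (log2 fold change -0.09, SE 0.029, adjusted p = 0.0232). That call was lost under 7 of the 14 alternatives, among them the fits without SK-BR-3 library 2 (adjusted p = 0.0841), SK/EPI library 2 (0.0861) or SK/EPI library 3 (0.0736), and without the mitochondrial chromosome the log2 fold change turned to 0.01. After silencing HSPA9 was 91.4, 90.2 and 89.2 against 110.1, 109.8 and 111 FPKM (log2 fold change 0.29, SE 0.019, adjusted p = 4.21e-05). The nucleotide exchange factors of HSPA9 differed from each other. GRPEL1 was at 10.5, 11.1 and 10.3 against 12.2, 13.3 and 12.5 FPKM in the first comparison (log2 fold change 0.23, SE 0.045, adjusted p = 0.00169) and at 20.6, 19.01 and 18.8 against 21.0, 20.2 and 20.9 in the second (log2 fold change 0.084, SE 0.039, adjusted p = 0.129). For GRPEL2 the values were 8.37, 8.57 and 9.90 and 9.74, 9.86 and 9.33 FPKM, with overlap (log2 fold change 0.10, SE 0.062, adjusted p = 0.175), then 7.22, 8.22 and 8.47 and 6.54, 6.72 and 7.09 FPKM (log2 fold change -0.20, SE 0.06, adjusted p = 0.0336). GRPEL1 was called higher after silencing without SK/EPI-siNC library 1 (adjusted p = 0.0219), and GRPEL2 was called higher in SK/EPI cells without SK-BR-3 library 3 (0.0123).

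Of the matrix folding chaperones, HSPD1 and its lid HSPE1 (HSP10), which are transcribed head to head, were higher in both comparisons. HSPD1 had 119, 127 and 127 FPKM in SK-BR-3 and 174, 177 and 181 in SK/EPI libraries (log2 fold change 0.50, SE 0.038, adjusted p = 7.35e-06), and 154, 158 and 160.0 FPKM in SK/EPI-siNC and 222, 224 and 227 in SK/EPI-siBCRP libraries (log2 fold change 0.51, SE 0.023, adjusted p = 9.54e-06). The rises were 1.42-fold and 1.43-fold, with no overlap. HSPE1 rose by less, from 19.4, 23.3 and 21.1 to 24.1, 26.6 and 25.8 FPKM (log2 fold change 0.25, SE 0.067, adjusted p = 0.00873) and from 21.8, 20.2 and 19.7 to 22.1, 22.9 and 24.0 FPKM (log2 fold change 0.15, SE 0.044, adjusted p = 0.0315). The second call of HSPE1 did not hold without SK/EPI-siBCRP library 2 or 3 or SK/EPI-siNC library 2 or 3 (adjusted p = 0.0731 to 0.0926). Reads on 17 annotated copies were at most 2.08% of those on HSPD1, and on 26 copies at most 4.93% of those on HSPE1. Strand was not marked by the kit named in the labels, and 14.2% of HSPE1 exon sequence lies opposite HSPD1. TRAP1, the HSP90 of mitochondria, overlapped in the first comparison (log2 fold change 0.022, SE 0.046, adjusted p = 0.680) and rose from 44.6 ± 0.748 to 55.4 ± 0.120 FPKM after silencing (log2 fold change 0.31, SE 0.02, adjusted p = 4.27e-05).

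The matrix proteases included LONP1, whose rise was the largest of the first comparison on the log2(FPKM + 1) scale but smaller than that of PAM16 as a ratio of FPKM. LONP1, an ATP-dependent protease that removes oxidised and unassembled proteins, was at 20.5, 21.1 and 19.8 FPKM in SK-BR-3 and 34.4, 35.2 and 35.8 in SK/EPI libraries, 1.72-fold higher (log2 fold change 0.75, SE 0.035, adjusted p = 4.01e-07). After silencing it was higher again, at 38.0, 37.3 and 38.0 FPKM against 29.4, 29.5 and 29.5 (log2 fold change 0.35, SE 0.02, adjusted p = 2.24e-05). CLPP and CLPX form the other matrix protease, CLPP as its proteolytic core and CLPX as its unfoldase. CLPP was higher in SK/EPI cells (18.6, 19.1 and 18.4 to 24.97, 22.9 and 22.9 FPKM, log2 fold change 0.32, SE 0.042, adjusted p = 0.000198) and after silencing (22.1, 22.4 and 21.8 to 31.2, 34.4 and 34.8 FPKM, log2 fold change 0.58, SE 0.041, adjusted p = 5.78e-05). CLPX was lower in SK/EPI cells, from 14.1 ± 0.329 to 11.9 ± 0.119 FPKM (log2 fold change -0.23, SE 0.034, adjusted p = 0.000370). Its later rise from 9.61 ± 0.370 to 10.6 ± 0.475 FPKM passed narrowly (log2 fold change 0.13, SE 0.043, adjusted p = 0.0489), and did not hold in 7 alternatives (adjusted p = 0.0631 to 0.136), including those without SK/EPI-siBCRP library 2 or 3 or SK/EPI-siNC library 1 or 2. The subunits of this protease moved in opposite directions in SK/EPI cells. All 3 processing peptidases were lower in SK/EPI cells and higher after silencing. PMPCA and PMPCB, the subunits of the enzyme that removes targeting sequences, had log2 fold changes of -0.26 and -0.54, then 0.23 and 0.17. MIPEP, which trims the same precursors once more, was at 5.99, 5.75 and 6.09 against 3.56, 4.42 and 4.04 FPKM (log2 fold change -0.47, SE 0.069, adjusted p = 0.000364), then at 5.69, 5.38 and 5.38 against 7.66, 7.51 and 6.97 FPKM (log2 fold change 0.37, SE 0.046, adjusted p = 0.000769). No group overlapped in these 3 genes.

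Among the proteases of the inner membrane and intermembrane space, YME1L1 (the i-AAA protease) and AFG3L2 (m-AAA) were lower in SK/EPI cells, by log2 values of -0.46 and -0.21 in that order, and higher after silencing, at 0.17 and 0.26. SPG7, the partner of AFG3L2 in the m-AAA protease, was higher in SK/EPI cells instead, at 2.49 ± 0.0757 against 3.23 ± 0.0735 FPKM (log2 fold change 0.28, SE 0.052, adjusted p = 0.00152). OMA1, a stress-activated peptidase, was not called in either (log2 fold change 0.14, SE 0.067, adjusted p = 0.0949, then log2 fold change -0.21, SE 0.073, adjusted p = 0.0602), although it passed as higher in the first under the same 3 scalings (adjusted p = 0.0253 to 0.0318) and without SK/EPI library 2 (0.0317), and as lower in the second without SK/EPI-siBCRP library 3 (0.0461), with 10 reads in every library (0.0479) and by voom (0.0223). HTRA2, a serine protease of the intermembrane space, was not called in SK/EPI cells (log2 fold change 0.072, SE 0.058, adjusted p = 0.286) and higher after silencing (log2 fold change 0.32, SE 0.054, adjusted p = 0.00304), and 36.9% of its exon sequence is shared with other annotated genes. PHB and PHB2 form the prohibitin ring that holds the m-AAA protease. PHB was higher in SK/EPI cells (log2 fold change 0.32, SE 0.061, adjusted p = 0.00167) and rose from 21.1, 21.2 and 20.7 to 28.0, 30.4 and 28.9 FPKM with silencing (log2 fold change 0.45, SE 0.033, adjusted p = 6.44e-05), whereas PHB2 was called in the second comparison (log2 fold change 0.18, SE 0.023, adjusted p = 0.00103) but not in the first (log2 fold change 0.07, SE 0.033, adjusted p = 0.0902), where it was called higher under the 3 scalings named above (adjusted p = 0.00109 at most).

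In the intermembrane space, CHCHD4, the oxidoreductase that traps small cysteine-rich precursors, had the largest rise of the members after silencing. It went from 11.4, 11.2 and 13.0 FPKM in SK/EPI-siNC to 18.8, 18.8 and 18.2 in SK/EPI-siBCRP libraries, 1.56-fold (log2 fold change 0.61, SE 0.053, adjusted p = 0.000140), after 22.4, 22.2 and 22.3 FPKM in SK-BR-3 and 15.7, 17.0 and 14.9 in SK/EPI libraries (log2 fold change -0.47, SE 0.046, adjusted p = 3.59e-05). Its SK/EPI-siNC values lay below its SK/EPI ones, in a table that may have been scaled separately. GFER, which reoxidises CHCHD4, overlapped in the first comparison (0.011 on the log2 scale) and rose in the second (log2 fold change 0.21, SE 0.023, adjusted p = 0.000450). TIMM22, the channel for carrier proteins, showed the same, overlapping at first (log2 fold change 0.053, SE 0.09, adjusted p = 0.607) and then rising from 5.94, 6.64 and 6.71 to 9.14, 8.97 and 8.92 FPKM (log2 fold change 0.43, SE 0.047, adjusted p = 0.000425). The small TIM chaperones, which shield hydrophobic precursors on their way, were mixed in SK/EPI cells. TIMM8A was at 4.43, 4.16 and 3.87 against 5.13, 5.63 and 5.81 FPKM (log2 fold change 0.34, SE 0.063, adjusted p = 0.00150) while its paralogue TIMM8B was at 63.6, 54.5 and 53.8 against 42.9, 47.9 and 46.1 FPKM (log2 fold change -0.32, SE 0.07, adjusted p = 0.00355), so the higher-expressed paralogue was the lower one. After silencing TIMM8A overlapped, with 4.63, 4.85 and 5.74 and 5.65, 6.09 and 5.85 FPKM (log2 fold change 0.18, SE 0.071, adjusted p = 0.0866, but 0.0121 without SK/EPI-siNC library 3). TIMM8B was at 41.1, 41.4 and 38.5 and 42.1, 47.5 and 45.5 FPKM (log2 fold change 0.16, SE 0.048, adjusted p = 0.0386), a call lost without any of 5 libraries (SK/EPI-siBCRP 2 or 3, SK/EPI-siNC 1, 2 or 3, adjusted p = 0.0533 to 0.109). TIMM9 and TIMM10, which assemble into the same ring, differed in direction in SK/EPI cells (0.27 and -0.32) and rose alike after silencing (0.26 and 0.28). TIMM13 was not called in either (0.057 and 0.12), but passed in the second by voom (adjusted p = 0.0479) and without SK/EPI-siNC library 1 (0.0359).

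The SAM complex was lower in SK/EPI cells throughout. SAMM50, its core, was at 8.47, 9.29 and 8.48 FPKM in SK-BR-3 and 4.60, 4.82 and 4.41 in SK/EPI libraries, 1.90-fold lower (log2 fold change -0.80, SE 0.053, adjusted p = 3.45e-06), and at 4.79, 5.04 and 4.88 against 6.41, 6.87 and 6.61 FPKM with silencing (log2 fold change 0.37, SE 0.041, adjusted p = 0.000461). Its partner MTX1 was 1.54-fold lower in SK/EPI cells (log2 fold change -0.55, SE 0.051, adjusted p = 2.52e-05) and not called after silencing (log2 fold change 0.16, SE 0.062, adjusted p = 0.0829), except without SK/EPI-siNC library 1 (adjusted p = 0.0149). Reads on the annotated copy MTX1P1 amounted to 18.2 to 94.8% of those on MTX1 in SK/EPI-siNC libraries and 24.6 to 34.3% in the others, so the second value is uncertain. MTX2 was at 19.2 ± 0.505 against 17.4 ± 1.12 FPKM in the first comparison (log2 fold change -0.13, SE 0.049, adjusted p = 0.0388), a call lost under 7 alternatives (adjusted p = 0.0892 to 0.450), including those without SK-BR-3 library 2 or 3 or SK/EPI library 1. The rise of MTX2 after silencing, from 23.4, 22.2 and 22.1 to 29.6, 29.9 and 32.2 FPKM, had a log2 fold change above the median of the members (log2 fold change 0.42, SE 0.039, adjusted p = 0.000188). Its SK/EPI-siNC values also lay above its SK/EPI ones, in the other table.

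**Figure D4:**
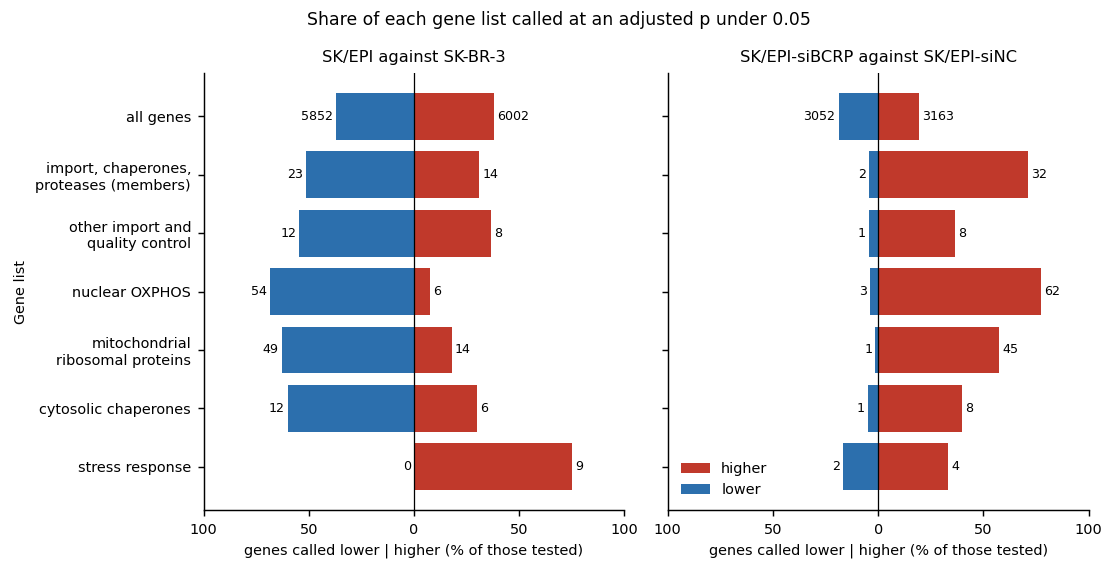
Share of each gene list (%, x axis) called lower (blue, to the left) and higher (red, to the right) at an adjusted p under 0.05, with the number of genes beside each bar, for SK/EPI against SK-BR-3 and SK/EPI-siBCRP against SK/EPI-siNC. The members, at 23 lower and 14 higher, are more evenly split than the nuclear OXPHOS genes, at 54 and 6, in the left panel, and both lists lie mainly on the higher side in the right panel.

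The clients and neighbours of the machinery are given by their counts, with the largest changes on the log2(FPKM + 1) scale named. Nuclear OXPHOS genes had a median log2 fold change of -0.38 in SK/EPI against SK-BR-3 cells, with NDUFB9 of complex I lowest (-1.54) and ATP5PB and ATP5F1A of ATP synthase next (-1.33 and -1.24). After silencing, 62 of 80 were higher and 3 lower, with a median of 0.39, and ATP5F1D (0.81) and ATP5F1B (0.66), also of ATP synthase, rose most on the log2(FPKM + 1) scale. Genes for mitochondrial ribosomal proteins had 49 of 78 lower and 14 higher in SK/EPI cells (median -0.26), then 45 higher and 1 lower after silencing (median 0.14), led by MRPL34 (0.62). A second list of 22 import and quality control genes outside the members had 12 lower and 8 higher in SK/EPI cells (median -0.19), then 8 higher and 1 lower (median 0.11). In it TOMM40L, a paralogue of TOMM40, fell from 10.8 ± 0.435 to 3.13 ± 0.381 FPKM (log2 fold change -1.52, SE 0.072, adjusted p = 4.74e-07), and PITRM1, which degrades cleaved targeting sequences, from 14.6 ± 0.758 to 6.94 ± 0.0560 FPKM (log2 fold change -0.97, SE 0.045, adjusted p = 3.89e-07). IMMP2L, a subunit of the inner membrane peptidase, rose in SK/EPI cells (log2 fold change 0.93, SE 0.1, adjusted p = 6.50e-05). CLPB, a disaggregase of the intermembrane space, rose after silencing from 2.21 ± 0.187 to 3.94 ± 0.140 FPKM (log2 fold change 0.63, SE 0.06, adjusted p = 0.000214).

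Chaperones of the cytosol did not move as a block in SK/EPI cells. Of 20, 12 were lower and 6 higher. The higher ones were HSPB1 (1.253), HSPA1B (1.22), HSPA1A (1.10), HSP90AB1 (0.64), DNAJA1 (0.53) and HSP90AA1 (0.11). The lower ones were led by BAG3 (-1.10), HSPH1 (-0.61) and DNAJB1 (-0.51). HSPH1, DNAJB1, HSP90AB1, DNAJA1 and HSP90AA1 were named after their values were seen. HSPA1A and HSPA1B are near-identical copies, so the division of reads between them is uncertain. After silencing 8 were higher and 1 lower, HSPB1 again leading (0.62). Genes linked to mitochondrial stress signalling through ATF4 and related factors had 9 of 12 higher and 0 lower in SK/EPI cells by limma, also 0 lower at an unadjusted p under 0.05 and by voom. The number higher was 6 to 9 when a library was left out and lowest without SK/EPI library 2. DDIT3, a transcription factor of that response, was at 2.79 ± 0.440 in SK-BR-3 and 9.74 ± 0.0929 FPKM in SK/EPI cells (log2 fold change 1.51, SE 0.083, adjusted p = 1.13e-06), and CEBPB at 59.7 ± 2.01 and 166 ± 9.98 FPKM (log2 fold change 1.46, SE 0.049, adjusted p = 6.26e-08). After silencing 4 of the 12 were higher and 2 lower, with PSAT1, an enzyme of serine synthesis, up (log2 fold change 0.61, SE 0.038, adjusted p = 3.17e-05) and CEBPB down (log2 fold change -0.29, SE 0.031, adjusted p = 0.000359).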

How the data were processed

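Poly(A)-selected RNA of 12 libraries (3 per group) was sequenced, and the authors deposited FPKM values per gene in 2 tables, 1 for each comparison. The submitters' processing notes name HISAT2 2.0.5, featureCounts 1.5.0-p3, DESeq2 1.16.1 and hg38. The unit is not stated in the tables and was read from the values: value times merged exon length (GENCODE 29) gave whole multiples of 1 read for all values (tolerance 0.05), from which reads were recovered. The library total behind the scaling is not given in the sources used here, so tables were analysed separately.

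A gene was tested if it reached 10 reads, scaled to a library of median size, in 3 or more libraries and 15 reads in all. Testing was done with limma 3.58.1 (R 4.3.3, trended eBayes) on log2(FPKM + 1). Fold changes on this scale understate those of low genes. P-values were adjusted by Benjamini-Hochberg over all genes tested, and calls were made at an adjusted p under 0.05. SE is the moderated standard error. The fit was also run on simulated data with 200 changed genes and a known library total. Far more genes were called here, so that run does not address the scaling. Alternatives were a pseudocount of 0.1, no filter or 10 reads in every library, 3 other scalings, a replicate block, voom on the recovered reads, and leaving out each library. The members, the other lists and the promoter motifs were chosen with earlier results of these data known. All members could be named. Full values were given for the 10 members with the largest called, non-overlapping fold change per comparison, those called in opposite directions past a minimum fold in both, and 5 paralogue or partner pairs. The plan was to name at most 4 genes of each other list, those with the largest called fold change. More were named of the nuclear OXPHOS genes and the cytosolic chaperones, in part after their values were seen. Promoter sequences are from RefSeq. Python 3.11.15, numpy 2.4.6, pandas 2.3.3 and matplotlib 3.10.9 were used.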

Additional observations from a re-analysis of the deposited data

How the results depend on the processing

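Of the members' calls, 21 of 23 lower and 13 of 14 higher in SK/EPI cells, and 28 of 32 higher after silencing, kept direction and threshold in each of the 14 alternatives. Without the mitochondrial chromosome HSPA9 turned to a log2 fold change of 0.0105 in SK/EPI cells. Members lower after silencing numbered 1 without the filter and 0 to 3 when a library was left out. In the same comparison, ribosomal protein genes lower were 2 by voom and 1 to 2 with a library left out, and the other import genes higher were 5 without the filter. The other import genes lower were 0 without the filter, with the replicate block and by voom, and 0 to 1 with a library left out. Cytosolic chaperones lower were 2 when scaled to reads on genes, without the mitochondrial chromosome and with the replicate block, and 3 by voom. With a library left out, uncalled members crossed 0 on the log2 scale: in SK/EPI cells TIMM13 (-0.0107 to 0.1), TIMM22 (-0.0175 to 0.127), TRAP1 (-0.0043 to 0.0676) and GFER (-0.0191 to 0.0446), and after silencing TOMM5 (-0.0028 to 0.0194), PAM16 (-0.0923 to 0.041) and DNAJC15 (-0.0382 to 0.1065). The filter changes the number of genes tested and leaving out a library the number of samples. For the other changes the cause was not tested.

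The replicate numbers did not pair the libraries. After subtraction of the group mean, libraries sharing a number correlated at -0.022 to 0.0063 across 10380 genes in the first table and at -0.0072 to 0.048 across 11745 genes in the second, and not every library correlated best with its own number. With the replicate block 14 members were higher and 22 lower in SK/EPI cells, and 32 higher and 2 lower after silencing. By limma HSPA9 was no longer called in the first comparison (adjusted p = 0.0571) nor HSPE1 in the second (0.0737), TIMM13 was called higher in the second (0.0498), and the block changed no other member's call.

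Depth limits TOMM5 and PAM16, which rested on few reads. With 3 libraries a group, calls near the threshold changed when 1 library was left out. The library total behind the deposited values is not given, so a shift shared by many genes in SK/EPI cells cannot be told apart from scaling.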
